A study of Mus musculus with 32 samples.

Results

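Translation initiation factors are the proteins that bring the initiator tRNA, the small ribosomal subunit and an mRNA together at a start codon. Genes were taken by symbol, as every entry that begins with Eif followed by a digit from 1 to 6, leaving out the eIF2 alpha kinases (Eif2ak) and the transporter Eif4enif1. This gave 49 of the 13175 genes in the deposited table. They fall into 9 roles, from 14 subunits of the eIF3 complex to 2 repressors that bind eIF4E.

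The values come from 32 single oocytes of wild-type (WT) mice, whose strain and age are not given in the sources used here, with 1 library per oocyte. Immature preantral follicles were either vitrified, that is cooled to a glass for storage, or kept fresh, and all were then grown in eIVFG, an encapsulated in vitro follicle culture. Germinal vesicle (GV) oocytes, fully grown and arrested in prophase, were taken on day 8, 4 from follicles labelled fresh and 4 from follicles labelled vitrified, with no human chorionic gonadotropin (hCG) named. Metaphase II (MII) oocytes, the eggs released on induced ovulation, were taken on day 9, after hCG, 12 per treatment. The labels call each oocyte a biological replicate but give neither mouse nor culture, so p-values measure the spread between these oocytes only. All oocytes grew and matured in a dish, and no group holds oocytes matured in an animal.

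As background, initiation begins when eIF2 carries the initiator tRNA to the small subunit, where eIF1, eIF1A, eIF3 and eIF5 hold the scanning complex together. eIF2B recharges eIF2 with GTP after each round. The eIF4F complex of the cap-binding protein eIF4E, the scaffold eIF4G and the helicase eIF4A loads the mRNA, and 4E-BP proteins can block it by occupying eIF4E. A maturing oocyte makes almost no new transcripts: it translates stored mRNAs, lengthening the poly(A) tails of some and shortening those of others. Because cDNA in these libraries starts at poly(A) tails, fewer transcripts and shorter tails cannot be told apart in a value. Nor can more transcripts and longer tails. Neither protein levels nor rates of translation were measured.

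Total counts ran from 10357543 to 17687247 in GV oocytes and from 5300208 to 12206512 in MII oocytes. Levels are given as CPM, counts scaled to a library of 1000000, with library sizes adjusted by the trimmed mean of M values. A rise or fall below is thus a change in a transcript's level relative to the rest of its library. The amount of a transcript per oocyte was not measured. All values of GV oocytes in the deposited table are whole numbers, while 11.4% to 19.4% of those in each MII oocyte are not, so the kind of deposited value differs with stage and cannot be told apart from it in any comparison of MII with GV. Of the 49 genes, 27 had a fractional value in at least 1 MII oocyte and 22 had none (61.9% of all genes had none). No gene of the table summed to less than 10 across the MII oocytes. Of 13 oocyte markers, 12 were above 0 in every oocyte, and Figla was at 0 in 2 MII oocytes. A list of cumulus and granulosa cell markers, 27 of 30 in the table, summed to 74.3 to 167 CPM in GV oocytes and to 67.9 to 906 CPM in MII oocytes apart from MII fresh replicate 11, where it reached 5527 CPM. The genes of this list differed: Ptx3 was at 0 in all 8 GV oocytes and in 20 of 24 MII oocytes. Cyp19a1 and Nr5a2 were above 0 in every oocyte, with medians of 71.5 and 15.2 CPM in fresh MII oocytes. Values without replicate 11 are given below beside the named results whose sign or call it changes or whose fold it moves by over 1.5 times.

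The summed level of the 49 transcripts overlapped between all groups, while its makeup differed between stages. It came to 10310 ± 1440 CPM (SD, n = 4) in fresh GV oocytes, 10850 ± 957 (n = 4) in vitrified GV oocytes, 9334 ± 1481 (n = 12) in fresh MII oocytes and 10560 ± 1948 (n = 12) in vitrified MII oocytes. Transcripts of eIF3 subunits summed to 2140 ± 247 CPM in fresh GV oocytes and 788 ± 212 CPM in fresh MII oocytes, and those of eIF2 and related tRNA carriers to 1119 ± 163 and 396 ± 90.7 CPM. The sum of eIF2B subunits moved the other way, from 720 ± 168 to 2074 ± 494 CPM, as did that of eIF4G scaffolds, from 207 ± 56.1 to 565 ± 132 CPM. In both treatments the GV and MII ranges of these 4 sums did not overlap. These sums are given as a description, without a test.

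**Figure D1:**
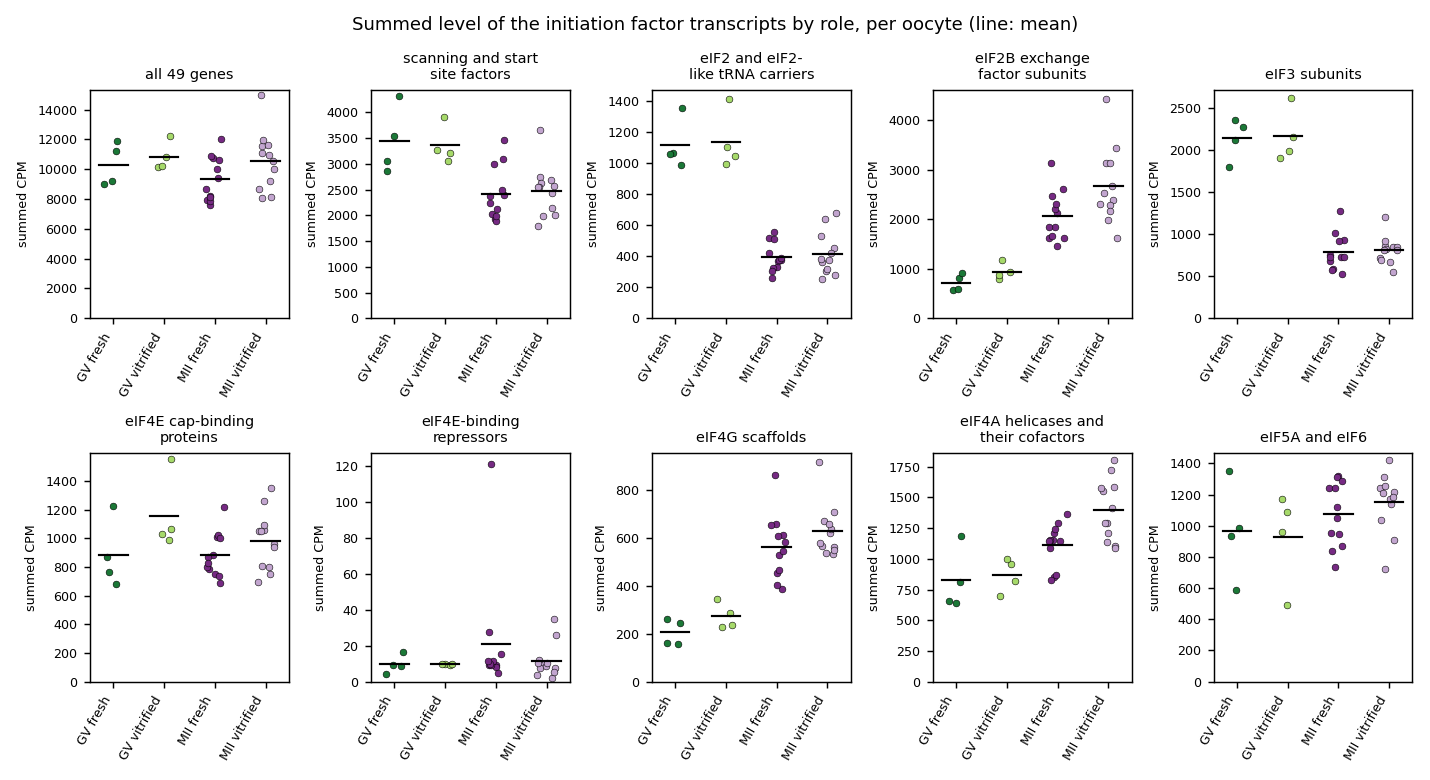
Summed CPM (linear axis from 0) of all 49 initiation factor transcripts and of each role, with 1 point per oocyte and a line at each group's mean. The eIF3 and eIF2 sums of every MII oocyte lie below those of every GV oocyte, the eIF2B and eIF4G sums lie above, and the sum over all 49 genes overlaps between the groups.

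The first comparison set MII against GV oocytes within each treatment, and most initiation factor transcripts were lower at MII. Among 48 genes that could be tested, 36 passed the threshold in fresh oocytes (75%, beside 52.6% of all 11470 genes), 10 of them higher in MII (22.8% of all genes) and 26 lower (29.8%). In vitrified oocytes 39 passed (57% of all genes), 9 higher (23.3%) and 30 lower (33.7%). In both treatments 8 were higher and 26 lower, and 0 were called in opposite directions. Calls shared by the treatments were not counted over all genes, so they cannot be read as particular to initiation factors. The calls are from edgeR's quasi-likelihood test with Benjamini-Hochberg adjustment over all genes at 0.05. The median log2 fold change of the 48 genes was −1.40 in either treatment, beside −0.23 (fresh) and −0.35 (vitrified) over all genes. Eif4a3l1, a copy of Eif4a3, was at most 0.828 CPM in any oocyte and was not tested.

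The direction differed with the kind of deposited value. Among the 22 tested genes whose MII values were all whole, the fresh median was −2.64, with 1 called higher and 17 lower. Among the 26 with a fractional MII value the median was 0.21, with 9 called higher and 9 lower. Over all genes of the table the corresponding medians were −0.84 and 0.49. In vitrified oocytes the whole-valued genes gave 1 higher and 19 lower calls, and the others 8 and 11. The 1 whole-valued gene called higher was Eif4ebp2 in both treatments. The split rests on the same MII values as the fold change, and a gene with few MII counts has fewer chances of a fractional value. The split therefore cannot separate the kind of deposited value from a low MII level. Eif2b5 and Eif3f, both whole-valued, had 248 and 469 counts over all 24 MII oocytes, while Eif6, also whole-valued, had 8189. Eif2b4, with a fractional value in 1 MII oocyte, had 822. How far the authors' quantification shaped each fold change was not tested.

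**Figure D2:**
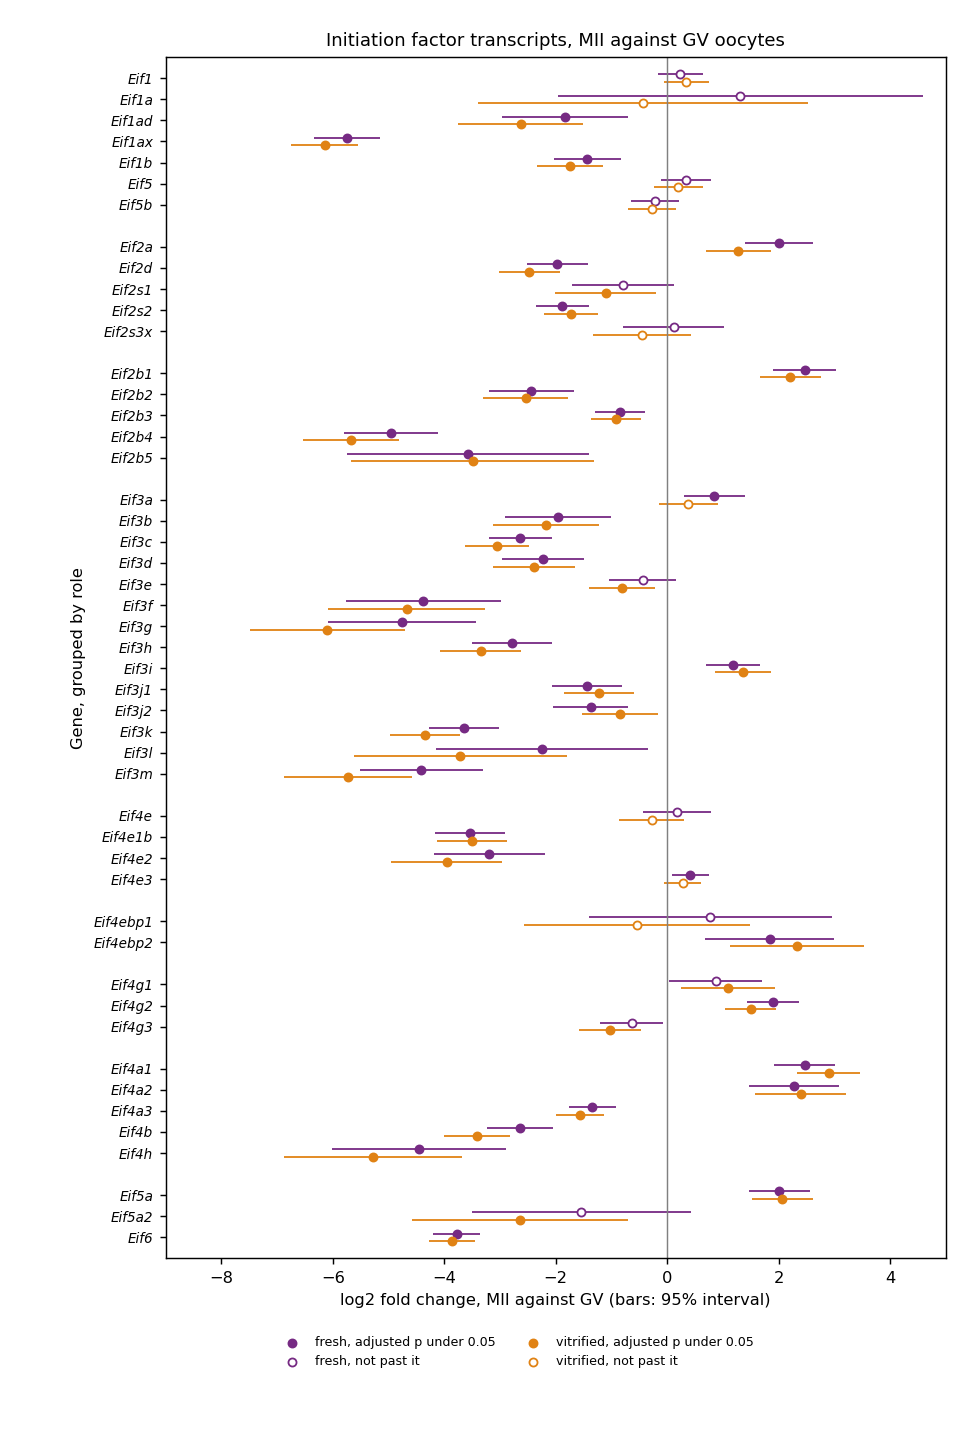
Log2 fold change of MII against GV oocytes (bars, 95% interval) for the 48 tested initiation factor genes, grouped by role, in fresh and in vitrified oocytes; filled points passed an adjusted p of 0.05. Most points lie left of 0, down to −5.74 (fresh) and −6.14 (vitrified) for Eif1ax, while Eif2b1, Eif4a1, Eif4a2 and Eif5a lie near or above 2 in both treatments.

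Among the 7 scanning and start site factors, 3 fell in each treatment and none passed the threshold upward, so the share that fell was not far above the 29.8% (fresh) and 33.7% (vitrified) of all genes. Eif1ax, the X-linked gene of eIF1A, which helps the small subunit to scan, had the largest fall of all 48 genes. It lies on chromosome X, 159372178 to 159389928, plus strand (GRCm38), and stood at 691, 536, 1227 and 809 CPM in the 4 fresh GV oocytes and 896, 671, 647 and 637 CPM in the 4 vitrified ones. In MII oocytes it ran from 8.52 to 44.1 (median 13.3) CPM after fresh culture and from 5.29 to 14.9 (median 10.1) CPM after vitrification. Every MII oocyte was thus below every GV oocyte, and the fitted fall was 53.4-fold in fresh oocytes (log2 fold change −5.74 ± 0.29 (SE), adjusted p = 2.05e-17) and 70.8-fold in vitrified ones (−6.14 ± 0.30 (SE), adjusted p = 4.95e-18, edgeR). Eif1a, its autosomal relative, lay between 0.0894 and 2.53 CPM in GV oocytes and between 0 and 4.60 CPM in all MII oocytes except fresh replicate 11, at 41.5 CPM. Its median in fresh MII oocytes was 0.148 CPM. Its log2 fold change in fresh oocytes did not pass, and turned from 1.32 ± 1.61 (adjusted p = 0.518) to −1.98 (adjusted p = 0.157, edgeR) without replicate 11.

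Eif1 encodes eIF1, which guards the choice of start codon, and Eif1b a close relative. Eif1 measured 901, 853, 818 and 1163 CPM in fresh GV oocytes and 737 to 1571 (median 1101) CPM in fresh MII oocytes, with overlapping ranges (0.23 ± 0.20 (SE), adjusted p = 0.337). Eif1b measured 639, 596, 999 and 571 CPM in fresh GV oocytes and 97.9 to 572 (median 248) CPM in fresh MII oocytes. It fell in fresh (−1.43 ± 0.29 (SE), adjusted p = 9.83e-05) and vitrified oocytes (−1.75 ± 0.29 (SE), adjusted p = 3.98e-06), with 1 MII oocyte just inside the GV range in the fresh comparison and none in the vitrified one. Eif1ad, which encodes a protein with an eIF1A domain, fell too, with log2 fold changes of −1.83 (fresh) and −2.63 (vitrified). Eif5, the activator of GTP hydrolysis by eIF2, and Eif5b, which joins the ribosomal subunits, did not pass. Eif5 measured 397, 316, 624 and 396 CPM in fresh GV oocytes and 347 to 759.9 (median 544) CPM in fresh MII oocytes, a log2 fold change of 0.33 (95% interval −0.12 to 0.78), which passed without GV fresh replicate 3 (0.57, adjusted p = 0.0433, edgeR). Eif5b measured 386, 540.0, 610.4 and 572 and 329 to 809.6 (median 412) CPM, a log2 fold change of −0.21 (−0.64 to 0.22).

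The 3 subunits of eIF2 did not move alike. Eif2s2, the beta subunit, stood at 909, 937, 1066 and 855 CPM in fresh GV oocytes, 1149, 859, 843 and 886 CPM in vitrified GV oocytes, 154 to 413 (median 258) CPM in fresh MII oocytes and 155 to 489 (median 231) CPM in vitrified MII oocytes. No MII oocyte reached the lowest GV oocyte, and the fall passed in fresh (−1.88 ± 0.23 (SE), adjusted p = 2.45e-08) and vitrified oocytes (−1.73 ± 0.24 (SE), adjusted p = 1.21e-07). Eif2s1, the alpha subunit whose phosphorylation restrains initiation, measured 67.3, 32.2, 192 and 25.3 CPM in fresh GV oocytes and 15.8 to 158 (median 36) CPM in fresh MII oocytes. Its log2 fold change was −0.79 in fresh oocytes (adjusted p = 0.144) and −1.10 in vitrified ones (adjusted p = 0.0342); without GV vitrified replicate 1 the latter became −0.55 (adjusted p = 0.373). The fresh value was 0.15 (adjusted p = 0.827) without GV fresh replicate 3 and −1.16 (adjusted p = 0.0112, edgeR) without MII fresh replicate 11, so single oocytes set both its sign and its call. Eif2s3x, the X-linked gamma subunit, was low everywhere, with 10.8, 6.42, 8.46 and 5.55 CPM in fresh GV oocytes and 1.98 to 17 (median 8.45) CPM in fresh MII oocytes, and did not pass. Its fresh log2 fold change turned from 0.12 (adjusted p = 0.849) to −0.018 (adjusted p = 0.978, edgeR) without MII fresh replicate 11. Eif2s3y was not analysed here.

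Eif2a and Eif2d encode single proteins that can deliver initiator tRNA without eIF2, and they moved in opposite directions. Eif2a measured 16.1, 15.7, 23.8 and 6.81 CPM in fresh GV oocytes, 40.0, 34.3, 13.9 and 25.1 CPM in vitrified GV oocytes, 46 to 99.7 (median 60.3) CPM in fresh MII oocytes and 41.2 to 95.6 (median 64.7) CPM in vitrified MII oocytes. It rose 4.01-fold in fresh (2.00 ± 0.30 (SE), adjusted p = 8.46e-07) and 2.42-fold in vitrified oocytes (1.28 ± 0.29 (SE), adjusted p = 0.000277). Eif2d fell, with log2 fold changes of −1.97 in fresh and −2.47 in vitrified oocytes (adjusted p = 1.34e-07 and 8.92e-10, edgeR), without overlap between stages in either treatment.

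Of the 5 subunits of eIF2B, the exchange factor that reloads eIF2 with GTP, Eif2b1 rose and the other 4 fell in both treatments, beside 22.8% to 23.3% of all genes called higher and 29.8% to 33.7% called lower. Eif2b1 encodes the alpha subunit, part of the regulatory core that senses phosphorylated eIF2, and lies on chromosome 5, 124570213 to 124579131, minus strand. It stood at 303, 247, 433 and 441 CPM in fresh and 894, 571, 316 and 447 CPM in vitrified GV oocytes, against 1394 to 3025 (median 1919) CPM at MII after fresh culture and 1564 to 4329 (median 2403) CPM at MII after vitrification. The stages did not overlap, and the rise was 5.54-fold in fresh (2.47 ± 0.28 (SE), adjusted p = 2.79e-09) and 4.63-fold in vitrified oocytes (2.21 ± 0.27 (SE), adjusted p = 1.54e-08). Its MII value was fractional in 19 of 24 oocytes. Eif2b4, the delta subunit of the same core, went from 124, 189, 156 and 249 CPM in fresh GV oocytes to 1.68 to 14.6 (median 5.36) CPM in fresh MII oocytes, a 31.1-fold fall (−4.96 ± 0.42 (SE), adjusted p = 3.71e-12), and fell 51-fold in vitrified oocytes (−5.67 ± 0.43 (SE), adjusted p = 2.21e-13). The log2 fold changes in fresh oocytes were −2.44 for Eif2b2 (beta), −0.84 for Eif2b3 (gamma) and −3.58 for Eif2b5 (epsilon, the catalytic subunit), and that of Eif2b5 was −4.33 without MII fresh replicate 11. With MII oocytes limited to library numbers from 20 up, the fresh calls of Eif2b3 (adjusted p = 0.0661) and Eif2b5 (0.072) and the vitrified call of Eif2b5 (0.0612) were lost.

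Per kilobase of exon, an approximate way to set levels of different genes side by side, the eIF2B subunits were thus further apart at MII than at GV. In fresh GV oocytes Eif2b1 stood at 138 ± 37.2 CPM per kilobase (SD, n = 4) beside 69.1 ± 20.6 for Eif2b4, 34.1 ± 5.62 for Eif2b2, 15.6 ± 5.6 for Eif2b3 and 7.4 ± 4.45 for Eif2b5. In fresh MII oocytes Eif2b1 stood at 774 ± 187 CPM per kilobase (SD, n = 12), Eif2b3 at 8.78 ± 2.25, Eif2b2 at 6.37 ± 3.54, Eif2b4 at 2.25 ± 1.5 and Eif2b5 at 0.629 ± 0.992. Eif2b4 thus stood next after Eif2b1 at GV and behind Eif2b3 and Eif2b2 at MII. At MII the means of Eif2b3 and Eif2b2 differed by less than the SD of Eif2b2. Exon length was merged over all annotated transcripts (6520 bases for Eif2b3, 2599 for Eif2b4 and 1885 for Eif2b2). The order of these levels therefore depends in part on those lengths, and it was not tested.

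**Figure D3:**
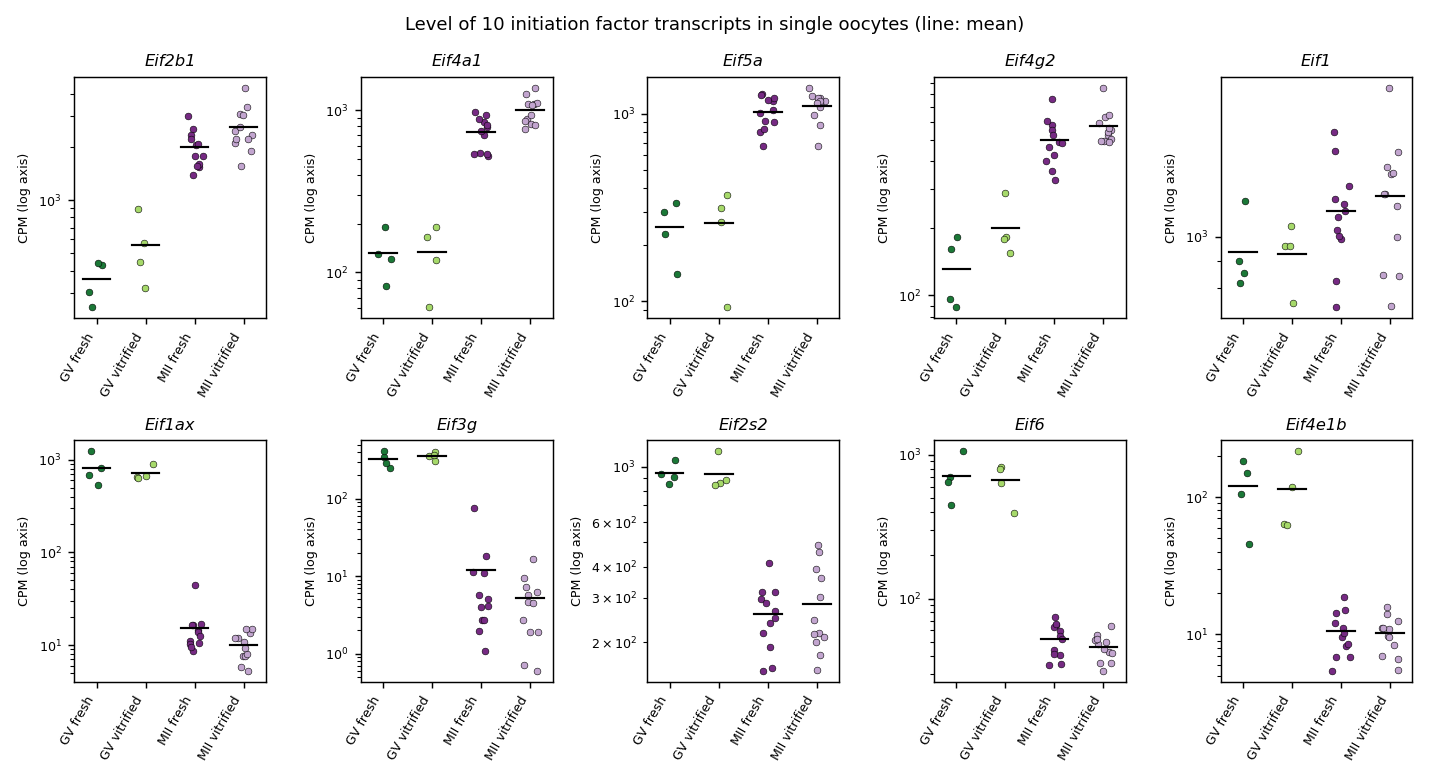
CPM (log axes) of 10 initiation factor transcripts in each of the 32 oocytes, with a line at each group's mean. Eif2b1, Eif4a1, Eif5a and Eif4g2 lie higher in every MII oocyte than in any GV oocyte, Eif1 overlaps between stages, and Eif1ax, Eif3g, Eif2s2, Eif6 and Eif4e1b lie lower in every MII oocyte.

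eIF3 is the largest initiation factor, a scaffold of many subunits on the small ribosomal subunit, and 11 of its 14 transcripts fell in fresh oocytes while 2 rose. In vitrified oocytes 12 fell and 1 rose. The median log2 fold change over the 14 was −2.24 in fresh and −2.72 in vitrified oocytes, beside the −0.23 and −0.35 of all genes, and the shares called are to be read beside the 29.8% and 33.7% of all genes called lower. Eif3g, which encodes an RNA-binding subunit, measured 247, 286, 350.1 and 407 CPM in fresh GV oocytes and 399.6, 355, 310.4 and 361 CPM in vitrified ones. In MII oocytes it ran from 1.07 to 76.4 (median 4.58) CPM after fresh culture, the highest value being replicate 11, and from 0.6 to 16.7 (median 4.56) CPM after vitrification. The fall was 27.1-fold in fresh (−4.76 ± 0.66 (SE), adjusted p = 1.61e-07) and 68.7-fold in vitrified oocytes (−6.10 ± 0.68 (SE), adjusted p = 2.02e-09), and without replicate 11 the fresh value became −5.71 (adjusted p = 1.77e-11).

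Eif3m and Eif3f, subunits of the structural core of eIF3, also fell. Eif3m measured 228, 126, 417 and 237 CPM in fresh GV oocytes and 2.69 to 65.8 (median 6.6) CPM in fresh MII oocytes, and fell 21.3-fold (−4.41 ± 0.55 (SE), adjusted p = 1.95e-08) and, in vitrified oocytes, 53.2-fold (−5.73 ± 0.56 (SE), adjusted p = 1.23e-10). Eif3f measured 74.5, 89.4, 44.2 and 73.1 CPM in fresh GV oocytes and 0 to 24 (median 1.56) CPM in fresh MII oocytes, and fell 20.8-fold (−4.38 ± 0.69 (SE), adjusted p = 1.7e-06) and 25.6-fold (−4.68 ± 0.70 (SE), adjusted p = 5.86e-07). Replicate 11 was again the highest MII oocyte for both genes. Without it the fresh log2 fold changes were −5.17 for Eif3m and −5.49 for Eif3f.

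Eif3k, a small subunit at the edge of the complex, stood at 707, 399, 562 and 535 CPM in fresh GV oocytes, 510.0, 309, 365 and 484 CPM in vitrified GV oocytes, 10.1 to 80.7 (median 49) CPM in fresh MII oocytes and 10.8 to 32.8 (median 18.2) CPM in vitrified MII oocytes. It fell in fresh (−3.65 ± 0.31 (SE), adjusted p = 4.03e-12) and in vitrified oocytes (−4.34 ± 0.31 (SE), adjusted p = 7.02e-14), without overlap of the stages. Eif3l, its partner in the complex, measured 96.3, 115, 106 and 79.9 CPM in fresh GV oocytes and 1.84 to 181 (median 5.68) CPM in fresh MII oocytes. Its fresh fall was just past the threshold (−2.25 ± 0.94 (SE), adjusted p = 0.0428), was lost in 17 of 31 alternative settings, among them all 4 that left out 1 fresh GV oocyte and all that left out 1 fresh MII oocyte other than replicates 1 and 11, and grew to −3.94 (adjusted p = 2.71e-05) without replicate 11. In vitrified oocytes Eif3l fell by 3.71 (adjusted p = 0.00102, edgeR). That value was −4.91 without MII vitrified replicate 12, and the call was lost with library numbers from 20 up (−3.00, adjusted p = 0.0571).

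The remaining eIF3 falls in fresh oocytes ran from −2.78 for Eif3h to −1.38 for Eif3j2 on the log2 scale, with Eif3b, Eif3c, Eif3d and Eif3j1 between them. Eif3j1 and Eif3j2 are near-identical copies: each had fractional values in all 24 MII oocytes, and their sum was whole to within 0.001 in 20 of them, so their separate levels are uncertain. Eif3i, a subunit that sits beside Eif3g in the complex, rose in fresh (1.18 ± 0.24 (SE), adjusted p = 9.73e-05) and vitrified oocytes (1.36 ± 0.24 (SE), adjusted p = 1.33e-05). It measured 163, 157, 185 and 215 CPM in fresh GV oocytes and 236 to 646 (median 404) CPM in fresh MII oocytes, without overlap. Eif3a, the largest subunit, measured 56.6, 26.9, 35.9 and 30.8 CPM in fresh GV oocytes and 46.2 to 88.3 (median 72.2) CPM in fresh MII oocytes. It rose in fresh oocytes (0.85 ± 0.27 (SE), adjusted p = 0.00808). That call was lost when library totals alone were used for scaling (log2 fold change 0.44, adjusted p = 0.183). It was also lost with the labels' replicate numbers as a block (0.70, adjusted p = 0.0521). Eif3a did not pass in vitrified oocytes (0.38 ± 0.26 (SE), adjusted p = 0.224). There it passed without GV vitrified replicate 1 (0.69, adjusted p = 0.0409) and with MII library numbers from 20 up (0.71, adjusted p = 0.0453, edgeR). Eif3e did not pass in fresh oocytes and fell by 0.81 in vitrified ones, where the call was lost without GV vitrified replicate 1 (−0.28, adjusted p = 0.449).

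The 4 cap-binding genes of the eIF4E family split by member. Eif4e1b, the family member of oocytes and early embryos, stood at 105, 183, 45.8 and 149 CPM in fresh GV oocytes, 64.1, 62.5, 215 and 119 CPM in vitrified GV oocytes, 5.43 to 18.7 (median 9.9) CPM in fresh MII oocytes and 5.49 to 15.9 (median 10.4) CPM in vitrified MII oocytes. It fell 11.6-fold (−3.54 ± 0.31 (SE), adjusted p = 8.04e-12) and 11.3-fold (−3.50 ± 0.31 (SE), adjusted p = 8.48e-12), without overlap. Eif4e2, which encodes the cap-binding protein 4EHP that represses bound mRNAs, measured 63.4, 62.9, 79.8 and 82.9 CPM in fresh GV oocytes and 2.54 to 31.5 (median 6.02) CPM in fresh MII oocytes, and fell, with log2 fold changes of −3.19 in fresh and −3.96 in vitrified oocytes (adjusted p = 1.15e-06 and 1.92e-08, edgeR).

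Eif4e, the canonical cap-binding protein, did not pass in either treatment. It measured 237, 249, 719.5 and 184 CPM in fresh GV oocytes, 1009, 509, 302 and 384 CPM in vitrified GV oocytes, 264 to 564 (median 372) CPM in fresh MII oocytes and 258 to 682 (median 445) CPM in vitrified MII oocytes. All 12 fresh MII values lay within the GV range of that treatment, as did 11 of 12 after vitrification, and the 95% interval of the fresh log2 fold change ran from −0.42 to 0.78. The fresh value passed without GV fresh replicate 3, the highest of its group (0.82, adjusted p = 0.0181, edgeR), and was −0.032 without GV fresh replicate 4; the vitrified value turned from −0.28 to 0.20 without GV vitrified replicate 1. Eif4e3, an atypical cap-binding member, measured 280.0, 377, 380.0 and 349 CPM in fresh GV oocytes and 352 to 706 (median 442) CPM in fresh MII oocytes. Its small rise in fresh oocytes (0.42 ± 0.16 (SE), adjusted p = 0.0324) was lost in 11 of 30 alternatives, with a log2 fold change of 0.02 (adjusted p = 0.899) under library totals alone. Leaving out GV fresh replicate 1 or 4, or MII fresh replicate 2, 6 or 12, also ended the call, with values of 0.32 to 0.42 (adjusted p = 0.0533 to 0.149).

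Within the family, per kilobase of exon, Eif4e1b made up 21.2% ± 10.0 (SD, n = 4) of the eIF4E total in fresh GV oocytes and 1.90% ± 0.912 (n = 12) in fresh MII oocytes. Eif4e3 made up 53.5% ± 2.59 and 72.2% ± 5.08, and Eif4e 21.5% ± 12.4 and 25.5% ± 5.04. In vitrified oocytes the Eif4e1b share was 16.2% ± 10.1 at GV and 1.66% ± 0.672 at MII, and its lowest GV share (7.78%) exceeded its highest MII share (3.14%). Between Eif1 and Eif1b, the share of Eif1 went from 42.3% ± 8.93 to 70.6% ± 9.25 in fresh oocytes, with no overlap (30.5% to 52.2% at GV, 53.8% to 84.6% at MII). These shares are descriptions without a test, and exon length was taken as merged over all annotated transcripts.

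Of the 2 genes for 4E-BP repressors, Eif4ebp2 rose from very low levels. It measured 3.55, 1.1, 1.2 and 2.64 CPM in fresh GV oocytes, 0.715, 0.496, 1.35 and 1.84 CPM in vitrified GV oocytes, 3.53 to 13.8 (median 8.15) CPM in fresh MII oocytes and 0.397 to 10.9 (median 4.89) CPM in vitrified MII oocytes. The rise passed in fresh (1.84 ± 0.57 (SE), adjusted p = 0.00715) and vitrified oocytes (2.33 ± 0.59 (SE), adjusted p = 0.00112), with 1 MII oocyte of each treatment at or under the highest GV oocyte. Eif4ebp1 measured 12.9, 3.29, 8.19 and 5.86 CPM in fresh GV oocytes and 0.437 to 115 (median 2.52) CPM in fresh MII oocytes, where the highest value was replicate 11, and did not pass. Its fresh log2 fold change turned from 0.78 (adjusted p = 0.57) to −1.01 (adjusted p = 0.268, edgeR) without that oocyte. Eif4ebp3 was not analysed here.

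Among the 3 scaffold genes, Eif4g2 rose most. Eif4g2 encodes DAP5, a relative of eIF4G that lacks the eIF4E-binding site. It stood at 182, 161, 88.4 and 96.1 CPM in fresh GV oocytes, 287, 184, 155 and 179.8 CPM in vitrified GV oocytes, 328 to 761 (median 486) CPM in fresh MII oocytes and 489.8 to 850.5 (median 546) CPM in vitrified MII oocytes. The stages did not overlap, and the rise was 3.73-fold in fresh (1.90 ± 0.23 (SE), adjusted p = 1.37e-08) and 2.82-fold in vitrified oocytes (adjusted p = 6.47e-07, edgeR). Its share of the 3 scaffold transcripts, per kilobase, was 62.4% ± 7.99 (SD, n = 4) in fresh GV and 87.1% ± 2.63 (n = 12) in fresh MII oocytes.

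Eif4g1, the main scaffold, measured 12.9, 7.56, 16.1 and 20.8 CPM in fresh GV oocytes and 12.7 to 51.6 (median 25.8) CPM in fresh MII oocytes, which did not pass (0.87 ± 0.41 (SE), adjusted p = 0.0722). In vitrified oocytes it rose by 1.09 (adjusted p = 0.0247, edgeR), a call lost without GV vitrified replicate 1, 2 or 4 (0.86 to 0.95, adjusted p = 0.0879 to 0.112) and larger without replicate 3 (1.83, adjusted p = 0.000936). Eif4g3, a further paralog, measured 50.9, 95.7, 51.1 and 45.1 CPM in fresh GV oocytes and 22.4 to 65.6 (median 38.7) CPM in fresh MII oocytes (−0.64 ± 0.28 (SE), adjusted p = 0.0521). That value passed without GV fresh replicate 4 or MII fresh replicate 2 or 4 (−0.76 to −0.66, adjusted p = 0.0329 to 0.0487). It fell by 1.03 in vitrified oocytes, a call lost without GV vitrified replicate 4 (−0.66, adjusted p = 0.0586).

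Transcripts of the helicases Eif4a1 and Eif4a2 rose, while those of Eif4a3 and of the helicase cofactors fell. Eif4a1, the main helicase that unwinds the 5′ end of an mRNA, lies on chromosome 11, 69666936 to 69672423, minus strand. It measured 82.9, 121, 129 and 191 CPM in fresh GV oocytes and 61, 119, 191 and 165 CPM in vitrified ones. In MII oocytes it ran from 521 to 973 (median 764) CPM after fresh culture and from 765 to 1366 (median 1007) CPM after vitrification, all above the highest GV oocyte. The rise was 5.52-fold (2.46 ± 0.27 (SE), adjusted p = 1.19e-09) in fresh and 7.44-fold (2.90 ± 0.27 (SE), adjusted p = 5.04e-11) in vitrified oocytes.

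Eif4a2, its close paralog, measured 45.8, 30.7, 57.8 and 32.4 CPM in fresh GV oocytes and 122 to 334 (median 185) CPM in fresh MII oocytes, and rose 4.85-fold (2.28 ± 0.40 (SE), adjusted p = 1.1e-05) and, in vitrified oocytes, 5.27-fold (2.40 ± 0.40 (SE), adjusted p = 4.9e-06). The MII values of Eif4a1 were fractional in all 24 oocytes and those of Eif4a2 in 5. Eif4a3, the helicase of the exon junction complex, went from 263, 318, 371 and 462 CPM to 75.8 to 263 (median 138) CPM in fresh oocytes and fell, with log2 fold changes of −1.34 in fresh and −1.57 in vitrified oocytes (adjusted p = 1.9e-06 and 8.06e-08, edgeR).

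Eif4h and Eif4b encode RNA-binding proteins that stimulate eIF4A. Eif4h measured 121, 139, 33.5 and 254 CPM in fresh GV oocytes and 0 to 23.2 (median 2.03) CPM in fresh MII oocytes. It fell 22-fold (−4.46 ± 0.77 (SE), adjusted p = 8.27e-06) and, in vitrified oocytes, 38.8-fold (−5.28 ± 0.79 (SE), adjusted p = 6.3e-07; −5.87 without MII vitrified replicate 12), with no overlap of the stages. Eif4b measured 128, 204, 67.9 and 244 CPM in fresh GV oocytes and 16.2 to 42.1 (median 25.7) CPM in fresh MII oocytes, and fell, with log2 fold changes of −2.64 in fresh and −3.41 in vitrified oocytes (adjusted p = 2.09e-09 and 4.93e-12, edgeR).

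Eif5a and Eif6 act outside the scanning step and moved in opposite directions. Eif5a encodes the hypusine-bearing factor that helps the ribosome through difficult stretches. It measured 139.6, 228, 334 and 299 CPM in fresh GV oocytes, 92.7, 315, 265 and 368 CPM in vitrified GV oocytes, 675 to 1276 (median 1029) CPM in fresh MII oocytes and 672 to 1370.0 (median 1152) CPM in vitrified MII oocytes. It rose 4.04-fold (2.01 ± 0.27 (SE), adjusted p = 8.97e-08) and 4.2-fold (2.07 ± 0.27 (SE), adjusted p = 4.68e-08), and its MII values were fractional in all 24 oocytes.

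Eif6, which keeps the large ribosomal subunit from joining too early, measured 445, 702, 644 and 1053 CPM in fresh GV oocytes, 395, 637, 824 and 797 CPM in vitrified GV oocytes, 34.3 to 74.3 (median 53.4) CPM in fresh MII oocytes and 31.5 to 64.6 (median 46.5) CPM in vitrified MII oocytes. The fall was 13.7-fold (−3.78 ± 0.20 (SE), adjusted p = 9.74e-17) and 14.5-fold (−3.86 ± 0.20 (SE), adjusted p = 4.1e-17), and the MII values of Eif6 were whole in every oocyte. Eif5a2, a paralog at under 10 CPM in every oocyte, did not pass in fresh oocytes (−1.54, adjusted p = 0.187; −0.81 without GV fresh replicate 3) and fell in vitrified ones (−2.64 ± 0.96 (SE), adjusted p = 0.0183, edgeR), a call lost without GV vitrified replicate 2 (−2.20, adjusted p = 0.0842).

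Other scalings shifted all genes. Scaling by library totals alone shifted the median log2 fold change of all 11470 genes by −0.38 in fresh and −0.47 in vitrified oocytes, and size factors from relative log expression shifted it by −0.15 and −0.11. None of the 36 fresh or 39 vitrified calls changed sign under any alternative run. Ranges that did not overlap between stages were found for 7 genes higher in fresh MII oocytes (14.6%, beside 12.6% of all genes) and 18 lower (37.5%, beside 18.3%). In vitrified oocytes these numbers were 7 (13.4% of all genes) and 24 (20.5%).

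Because the kit primes on poly(A) tails, the annotated 3′ ends of the transcripts were read from GENCODE M21 on GRCm38, which is mm10. Only genes with at least 100 bases of annotated 3′ untranslated region were read, 43 of the initiation factors and 12318 of the table. Left out were, among others, Eif2b4, Eif3g, Eif3k and Eif3m, which fell, and Eif3i, which rose. In the last 100 bases, on the sense strand, a polyadenylation hexamer (AATAAA or ATTAAA) stood in 35 of the 43 (81.4%), beside 82.2% of the 12318. A cytoplasmic polyadenylation element (TTTTAT or TTTTAAT), to which CPEB proteins bind in oocytes, stood in 4 of 43 (9.3%), beside 20.1% of all genes. By call in fresh oocytes it stood in 1 of 9 genes that were higher and 2 of 22 that were lower, beside 31.2% of all genes called higher and 11.5% of those called lower. The 30 bases ending in the hexamer are shown for 4 genes that rose and 3 that fell, 5′ to 3′ on the sense strand with the hexamer in capitals, since this is the end from which the kit primes. The 7 were picked by name, and a gene without a hexamer could not be shown, so the hexamer's presence in all 7 was fixed by the choice. Their last 100 bases hold 0 cytoplasmic elements. Among genes not shown, Eif1ax, which fell, holds 1 such element and 0 hexamers. Eif4g2, which rose, holds 0 hexamers, and Eif4e3, which rose, holds 1 such element.
Eif2b1: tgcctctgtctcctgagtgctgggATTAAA
Eif4a1: tcaggaaacaaacacaaaattctgAATAAA
Eif5a: cacatttgttaaaaatcaaacctgAATAAA
Eif2a: gtaatagtatttcctatgtaaacaAATAAA
Eif4h: tggtattttgtgaatgatcttttaAATAAA
Eif4e1b: tgcttaaggccctttctgtatctaAATAAA
Eif6: ttctgctatcttgtgccccaccccATTAAA
In the order printed these sites are chr5:124570227-124570256 (minus), chr11:69666954-69666983 (minus), chr11:69916739-69916768 (minus), chr3:58557457-58557486 (plus), chr5:134619894-134619923 (minus), chr13:54788415-54788444 (plus), chr2:155819853-155819882 (minus), in the 3′ untranslated region of each gene, with the strand in parentheses.
The first 4 rose and the last 3 fell in fresh oocytes, and both hexamer forms appear in either direction. The annotated transcript ended 7 to 21 bases after these sites. A match is a description of these letters, and the length of any poly(A) tail was not measured.

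The second comparison set vitrified against fresh follicles within a stage. In GV oocytes edgeR called 0 of 48 genes (0% of all 10831 genes), and 0 had an unadjusted p below 0.05, beside 180 of all genes. DESeq2 and limma-voom also called 0. The median log2 fold change was 0.07, beside 0.00 over all genes. The 95% interval lay within ±1 for 22 of the 48 genes, beside 18.9% of all genes, and reached past a 2-fold difference for the other 26.

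The 5 smallest p-values in GV oocytes belonged to Eif2b1, Eif2a, Eif4g2, Eif3a and Eif4e, all with higher means after vitrification. The Eif2b1 values given above correspond to a log2 difference of 0.66 (95% interval −0.10 to 1.43, unadjusted p = 0.0821, edgeR). Those of Eif2a gave 0.87 (−0.16 to 1.90), Eif4g2 0.61 (−0.12 to 1.34), Eif3a 0.55 (−0.28 to 1.38) and Eif4e 0.69 (−0.35 to 1.72). For each of the 5 the ranges of the treatments overlapped, and GV vitrified replicate 1 was the highest of the 8 GV oocytes. The adjusted p of each was 1. Without GV vitrified replicate 1 the differences shrank to 0.33 for Eif2b1, 0.38 for Eif4g2, 0.25 for Eif3a and 0.20 for Eif4e, and without GV fresh replicate 3 that of Eif4e was 1.31. The 1 gene whose ranges did not overlap was Eif4e3, at 280.0, 377, 380.0 and 349 CPM in fresh and 397, 405, 410.1 and 461 CPM in vitrified GV oocytes (log2 difference 0.28, adjusted p = 1, edgeR), while 0.757% of all genes were higher and 1.3% lower without overlap.

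GV vitrified replicate 1 stood apart among the 8 GV oocytes. It held the lowest value for 15 and the highest for 13 of the 48 genes, beside 27.8% and 21.5% of all 11041 genes with enough counts. Its Ccnb1 level was 2441 CPM, against 376 to 1473 CPM in the other GV oocytes, the next highest being GV fresh replicate 3. Its Eif4e, Eif3m and Eif2b1 values were the highest of the 8 and its Eif5a, Eif6 and Eif4a1 values the lowest. Without GV vitrified replicate 1 and GV fresh replicate 3 together, 0 genes were still called.

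**Figure D4:**
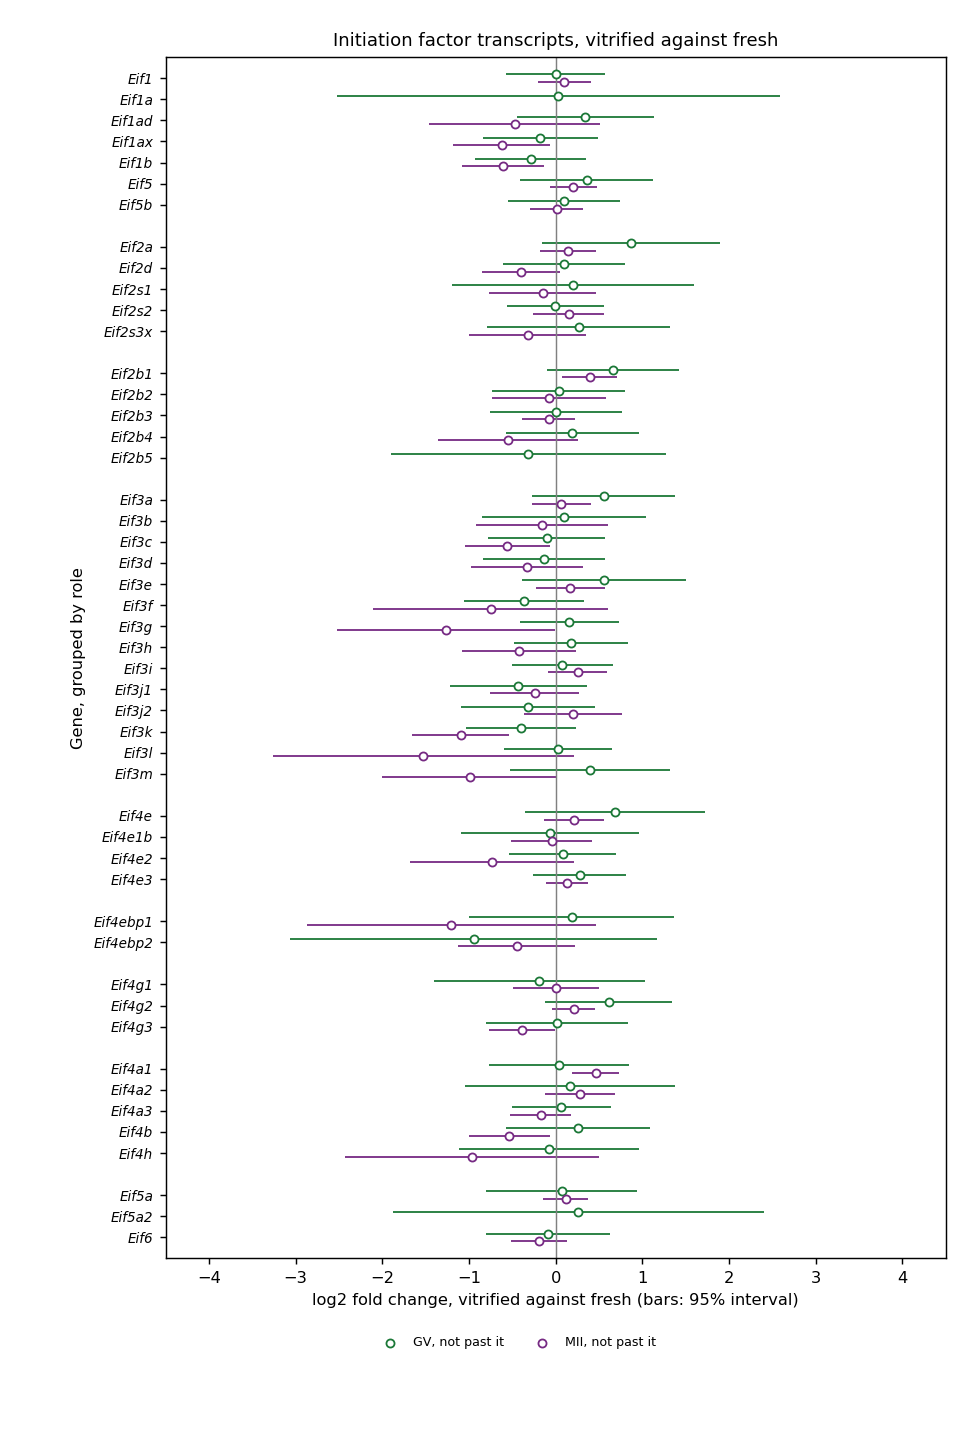
Log2 fold change of vitrified against fresh oocytes (bars, 95% interval) for the tested initiation factor genes, grouped by role, 48 in GV and 45 in MII oocytes. No point passed an adjusted p of 0.05; the MII values furthest from 0 are those of Eif3l (−1.53), Eif3g (−1.26), Eif4ebp1 (−1.21) and Eif3k (−1.10), of which the first 3 become 0.27, −0.23 and 0.69 without MII fresh replicate 11.

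In MII oocytes edgeR called 0 of 45 genes (0% of all 8428 genes), with 9 at an unadjusted p below 0.05, beside 1053 of all genes. Eif1a, Eif2b5, Eif5a2 and Eif4a3l1 were too low to be tested there. limma-voom called 0, and DESeq2 called 1 of the 45 and 52 of all genes. The median log2 difference was −0.18, beside −0.05 over all genes, and moved to −0.01 without MII fresh replicate 11. The 95% interval lay within ±1 for 28 of 45 genes, beside 63.8% of all genes.

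The gene called by DESeq2 was Eif3k, which also had the smallest p in edgeR. Its median over MII oocytes was 49 CPM after fresh culture and 18.2 CPM after vitrification, with overlapping ranges. The edgeR log2 difference was −1.10 (95% interval −1.66 to −0.54, adjusted p = 0.19), and the adjusted p in DESeq2 was 0.0255. It was −1.09 in MII oocytes with library numbers under 20 and −1.11 in those of 20 and over, the 2 runs of library numbers that both treatments share. No label says whether these runs are batches.

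Eif4a1 had a median of 764 CPM after fresh culture and 1007 CPM after vitrification (log2 difference 0.46, 95% interval 0.19 to 0.73, adjusted p = 0.197, edgeR). It was 0.53 among library numbers under 20 and 0.33 among the others. Eif2b1 differed by 0.39 (adjusted p = 0.324), with 0.52 and 0.17 in the 2 runs. Eif1b differed by −0.61 (adjusted p = 0.296), with −0.61 and −0.65, and Eif3c by −0.56 (adjusted p = 0.346), with −0.67 and −0.40. All ranges overlapped between treatments. The other unadjusted p-values below 0.05 belonged to Eif4b, Eif1ax, Eif4g3 and Eif3g, all with lower values after vitrification. Without MII fresh replicate 11, 6 rather than 9 genes had such a p, and the difference of Eif3g went from −1.26 to −0.23 and that of Eif1ax from −0.62 to −0.32.

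The interaction asked whether the stage difference differed between treatments, and edgeR called 0 of 48 genes (0% of 11470), with 0 at an unadjusted p below 0.05 beside 467 of all genes. DESeq2 and limma-voom called 0 of the 48 as well, and DESeq2 called 8 of all genes. The median was −0.31, beside −0.13 over all genes, and −0.15 without MII fresh replicate 11. The smallest p was that of Eif2a, with a difference of −0.73 (95% interval −1.49 to 0.04, unadjusted p = 0.0614, edgeR), followed by Eif4b (−0.77), Eif3m (−1.32), Eif3k (−0.69) and Eif4g2 (−0.40). Without MII fresh replicate 11 the value of Eif3m was −0.56, and leaving out 1 oocyte moved that of Eif4g2 between −0.59 and −0.18. These differences set the stage change after vitrification against that in fresh oocytes.

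MII fresh replicate 11, the oocyte rich in cumulus and granulosa markers, also stood apart in the initiation factors. It was the highest of the 24 MII oocytes for 15 of 49 genes (13 of the 45 tested, beside 11.8% of all 8428 genes), and 13 of 49 were at least 3 times the median of the other 23. Eif3l measured 181 CPM there against a median of 3.49 CPM, Eif4ebp1 115 against 2.44 CPM, Eif1a 41.5 against 0.453 CPM and Eif3f 23.98 against 1.45 CPM. Eif2s1, at 158 against 36.4 CPM, was the most abundant of the other genes past 3 times. Among genes that were abundant in every MII oocyte there was no such excess: Eif2b1 measured 2100 against 2227 CPM, Eif5a 1178 against 1135 CPM and Eif4a1 747 against 858 CPM. In 24 of the 49 genes replicate 11 lay within 1.5 times of that median in either direction. Neither this count nor that of genes past 3 times was taken over all genes. Neither can therefore be read as particular to initiation factors. Whether RNA of cumulus cells gave these values was not tested.

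**Figure D5:**
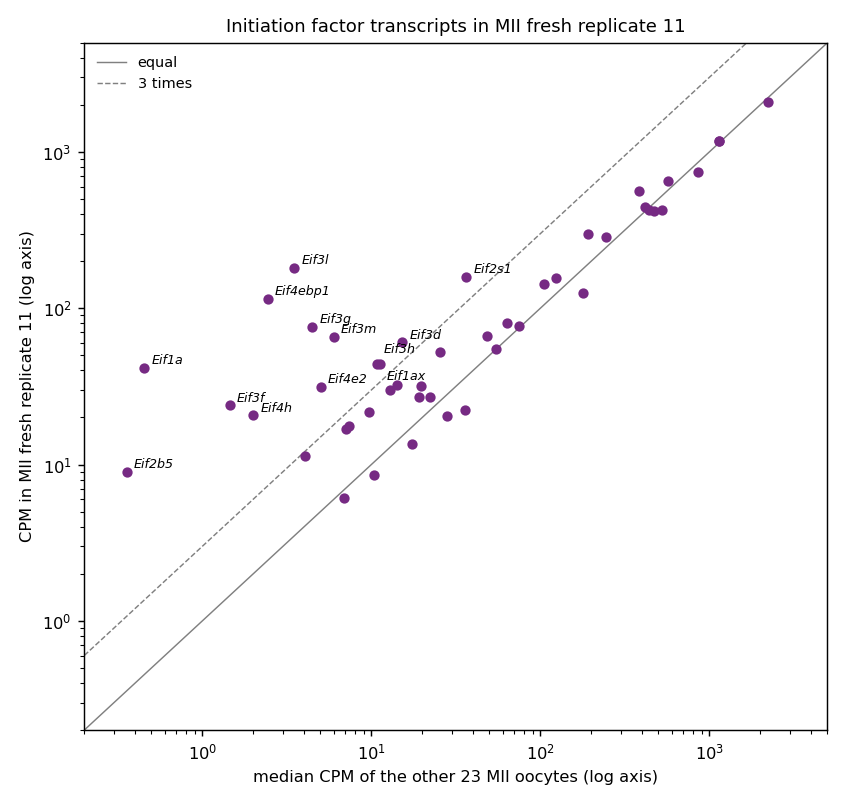
CPM of initiation factor transcripts in MII fresh replicate 11 against the median of the other 23 MII oocytes (both axes log; genes at 0 on either axis left out), with lines at equal and at 3 times. The 13 labelled genes lie above 3 times, all but Eif2s1 with a median under 20 CPM in the other oocytes, while genes with a median over 200 CPM lie near the line of equality.

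With replicate 11 left out, 37 genes passed in the fresh stage comparison, 10 higher and 27 lower, beside 6251 of all genes. The second MII oocyte high in the marker list, vitrified replicate 12 at 906 CPM, was the highest MII oocyte for 0 of the 49, beside 1.29% of all genes. It came next after fresh replicate 11 for Eif3l (54.9 CPM), Eif4ebp1 (27.7 CPM), Eif1a (4.60 CPM) and Eif3f (6.77 CPM). For Eif2s1 and Eif1ax, also past 3 times in replicate 11, other oocytes came next. Vitrified replicate 6, which was not high in the marker list, was the highest for 10 of the 49 (10 of the 45 tested, beside 10.1% of all genes), among them Eif1, Eif2b1 and Eif5a. A short list of 8 genes of cumulus expansion, such as Has2 and Ptx3, was over 10 CPM in 5 MII oocytes and at most 2.72 CPM in the others. Without these 5 oocytes, an alternative chosen after seeing the data, 39 genes passed in fresh oocytes (10 higher, 29 lower) and 40 in vitrified ones (9 higher, 31 lower), and 0 passed in the comparison of treatments at MII or in the interaction.

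Other genes of the translation pathway, from lists that are not initiation factors by symbol, were compared in the same way, and their counts are to be read beside the 22.8% (fresh) and 23.3% (vitrified) of all genes called higher and the 29.8% and 33.7% called lower. Of 8 genes of the eIF2 alpha kinases, phosphatases and their regulators, 3 rose and 0 fell in either treatment (median log2 fold change 0.67 in fresh oocytes). Ppp1r15a, a regulatory subunit that directs dephosphorylation of eIF2 alpha, had means of 63.1 ± 16.3 CPM (SD, n = 4) at GV and 274 ± 54.5 CPM (n = 12) at MII (log2 fold change 2.10 ± 0.21, adjusted p = 3.07e-10, edgeR). Eif2ak1, the haem-regulated kinase, rose by 2.18 ± 0.22 and Eif2ak4, the kinase that senses amino acid shortage, by 1.36 ± 0.23 on the log2 scale. Eif2ak1 and Eif2ak4 had fractional MII values in 24 and 19 oocytes.

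Of 12 elongation genes 0 rose and 8 fell in fresh oocytes (median −1.80), and 9 fell in vitrified ones. Eef1d, a subunit of the exchange factor of elongation, went from 561 ± 162 to 10.6 ± 10.3 CPM (−5.74 ± 0.40), and Eef1a1, which delivers aminoacyl-tRNA, from 713 ± 321 to 76.7 ± 144 CPM (−3.23 ± 0.68, and −4.29 without MII fresh replicate 11). Of 17 poly(A)-binding and mRNA 5′ end genes, 5 rose and 4 fell (4 and 7 in vitrified oocytes), shares close to those of all genes, with falls of Paip2b (−2.72 ± 0.31) and Paip2 (−3.39 ± 0.42), which restrain the poly(A)-binding protein, and a rise of the helicase Dhx36 (1.73 ± 0.24). Of 20 genes of mTOR control, 6 rose and 3 fell (6 and 2 in vitrified oocytes): Rictor, a subunit of mTOR complex 2, rose by 3.40 ± 0.26, while Lamtor5 (−5.34 ± 0.38) and Lamtor4 (−5.77 ± 0.73, and −6.58 without MII fresh replicate 11) of the lysosomal anchor fell. Termination and recycling genes gave 1 rise (Hbs1l, 2.39 ± 0.20) and 4 falls of 10 (1 and 7 in vitrified oocytes), and mitochondrial initiation and elongation genes 3 rises and 5 falls of 9 in either treatment. In vitrified against fresh oocytes, edgeR called 0 genes of any of these lists at either stage.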

How the data were processed

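Single mouse oocytes were sequenced with a SMART-Seq v4 kit, per the labels' protocols. Reads were aligned with HISAT2 to mm10 and assigned with featureCounts, per the submitters' processing notes, whose versions and settings no source used here gives. The deposited table holds whole read counts for the GV oocytes. For the MII oocytes its values are estimated counts, since 11.4% to 19.4% per oocyte are not whole, and no source used here names the step by which the authors made these fractions. They were rounded to whole numbers. The tests had been planned for counts, and those for counts were kept.

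Of 13202 table lines, 27 exact repeats were removed, leaving 13175 genes. 48 of the 49 initiation factor genes matched GENCODE M21, which gave exon lengths and positions, and Eif4a3l1 did not. The 3′ ends were read for the 43 genes with at least 100 bases of annotated 3′ untranslated region. Genes were kept by edgeR's filterByExpr (minimum count 10, minimum total 15), libraries were scaled by TMM, and differences were tested with the edgeR quasi-likelihood test across all genes (R 4.3.3, edgeR 4.0.16, limma 3.58.1, DESeq2 1.42.0), Benjamini-Hochberg adjusted at 0.05. The stage comparisons and the interaction used 1 fit of all 4 groups, and those of vitrified with fresh the oocytes of 1 stage. The fitting code was tested on simulated data. Total counts per oocyte ran from 5300208 to 17687247, and precision also depends on the spread between oocytes and their number per group. Alternatives were other scalings, filters, DESeq2, limma-voom, deposited values without rounding, a replicate block, library-number runs, and leaving out oocytes.

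Values are given for the 6 largest rises and 6 largest falls per stage comparison, the genes with the 5 smallest p-values elsewhere, a list of core factors chosen by name, and up to 3 genes of each other list. The genes, lists and tests were chosen with earlier results of these data known. Eif2s3y, Eif4a3l2 and Eif4ebp3 were not analysed here.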

Additional observations from a re-analysis of the deposited data

Results flagged for a closer look

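For each gene, the 4 GV oocytes of a treatment were searched for a highest or lowest value whose gap to the nearest of the other 3 took more of the whole range than Dixon's 95% critical value allows, which chance passes in about 1 of 20 groups. Of 98 such groups, 10 passed. The search was not run over all genes, so no share of the whole table stands beside these 10. The rate of 1 in 20 assumes normally distributed values, which was not tested. No weighing of causes was made.

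GV vitrified replicate 1 held 3 of the 10. It had the highest Eif1ax value, 896.4 CPM against 636.9 to 671.3 CPM in the other 3 oocytes, and the highest Eif2s2 value, 1149 CPM against 842.9 to 885.6 CPM. It also had the lowest Eif3f value, 40.68 CPM against 57.63 to 60.21 CPM. GV fresh replicate 3 held 3 more: Eif1b stood at 999.2 CPM against 570.6 to 638.6 CPM, Eif4e at 719.5 CPM against 184.3 to 249.2 CPM, and Eif4a3l1 at 0.8279 CPM against 0 to 0.0813 CPM.

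The remaining 4 lay in other oocytes. Eif3c was highest in GV fresh replicate 4, at 201.5 CPM against 107.6 to 114.8 CPM. Eif4g1 was highest in GV vitrified replicate 3, at 27.79 CPM against 5.976 to 8.389 CPM. Eif4g3 was highest in GV fresh replicate 2, at 95.71 CPM against 45.06 to 51.14 CPM, and in GV vitrified replicate 4, at 101.6 CPM against 44.13 to 52.66 CPM.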

How the results depend on the processing

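None of the 36 fresh and 39 vitrified stage calls changed sign under any alternative run. Among results that had not passed, signs turned for 8 genes in the fresh stage comparison, 6 in the vitrified one and 2 between treatments at MII. Library totals alone gave fresh values of −0.18 for Eif1, −0.26 for Eif2s3x, −0.14 for Eif4e and −0.031 for Eif5, and vitrified values of −0.20 for Eif1, −0.037 for Eif3a, −0.23 for Eif4e3 and −0.23 for Eif5. For fresh Eif1a the value was −2.08 in DESeq2, −1.83 in limma-voom, −1.51 with the replicate block, −2.31 at library numbers under 20, −1.98 without the oocytes high in cumulus and granulosa markers and −2.85 without those over 10 CPM of expansion genes (adjusted p = 0.0346, edgeR). For fresh Eif4ebp1 the same settings gave −1.15, −1.10, −0.75, −0.69, −1.01 and −1.79 (adjusted p = 0.00617 in the last, edgeR). Fresh Eif2s3x was −0.017 with size factors from relative log expression, −0.018 in DESeq2, −0.020 in limma-voom, −0.075 at library numbers under 20, and −0.016 and −0.076 without the oocytes high in either marker list. Between MII treatments Eif4ebp1 was 0.085 in DESeq2, 0.24 in limma-voom, 0.21 with the replicate block, 0.18 at library numbers under 20 and 0.072 without the oocytes high in cumulus and granulosa markers. Without GV fresh replicate 3 and GV vitrified replicate 1, Eif2s1 was 0.20 and Eif3e 0.027 in fresh oocytes, and Eif4e 0.26 and Eif5b 0.059 in vitrified ones. Leaving out 1 oocyte at a time gave ranges of −1.98 to 1.59 for Eif1a, −1.16 to 0.15 for Eif2s1, −0.018 to 0.31 for Eif2s3x, −0.032 to 0.82 for Eif4e and −1.01 to 1.16 for Eif4ebp1 in fresh oocytes, −0.48 to 0.20 for Eif4e in vitrified ones, and −2.72 to 0.27 for Eif3l and −1.79 to 0.69 for Eif4ebp1 between MII treatments. The median of the tested genes in the fresh stage comparison was −1.79 under library totals alone, −1.07 when MII oocytes were limited to library numbers from 20 up, and −1.09 without GV fresh replicate 3 and GV vitrified replicate 1, which was chosen after seeing the data. In vitrified oocytes it was −1.89 under library totals alone. Restricted to genes whole in every oocyte, 18 were called with a median of −2.64 in fresh oocytes and 20 with a median of −3.38 in vitrified ones, out of the 22 then left. As described above, that restriction rests on the MII values themselves and so cannot separate the kind of value from a low MII level. In the comparison of vitrified with fresh MII oocytes DESeq2 called 1 gene. Leaving out 1 oocyte at a time gave 0 calls in GV (medians 0.03 to 0.14), 0 in MII (−0.24 to −0.01) and 0 in the interaction (−0.39 to −0.15). It gave 34 to 37 calls in the fresh stage comparison (−1.50 to −1.14) and 35 to 39 in the vitrified one (−1.49 to −1.37). At least 1 alternative ended 5 of the 36 fresh calls and 8 of the 39 vitrified calls; those of Eif2s1 and Eif3j2 were lost without GV vitrified replicate 1 or 2 or MII vitrified replicate 9 (Eif2s1 −1.03 to −0.55, Eif3j2 −0.78 to −0.71). The labels' replicate numbers were tried as a replicate block, which gave 0 calls in GV, 0 in MII, 35 in the fresh stage comparison (median −1.44), 35 in the vitrified one (−1.43) and 0 in the interaction. Of all genes, the block called 5427 in the fresh stage comparison and 5924 in the vitrified one. Deviations of oocytes with the same number correlated at −0.40 to 0.20 in GV and −0.33 to 0.32 in MII. Of these, 1 of 4 and 0 of 12 correlated best with their own. The labels do not say whether oocytes with the same number share a mouse or a culture, and these correlations cannot decide it. Eif1a, Eif2b5, Eif5a2 and Eif4a3l1 had too few counts for a test between MII treatments, so a difference in them was not detectable at this depth.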
